A study of Homo sapiens with 21 samples.

Results

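The unfolded protein response of the endoplasmic reticulum was followed through 10 genes (HSPA5, HSP90B1, DNAJB9, DNAJC3, SDF2L1, PDIA4, CRELD2, HERPUD1, ERN1 and XBP1), which were taken by name from the 58735 genes measured. The cells were MDA-MB-453, an established human breast cancer cell line, so that all libraries come from 1 line. RNA-seq of messenger RNA was done on 21 libraries, 3 for each of 7 groups: an untreated control, the metals calcium at 10 mM or cadmium at 10 μM, the compounds GSK4716 at 5 μM or DES at 10 μM, and each metal together with DES. GSK4716 is an agonist and DES (diethylstilbestrol) an antagonist of the estrogen-related receptor ESRRB, and the study asked whether the metals act on the cells through that receptor. Treatments lasted 24 h, and in the combined groups DES was added 3 h before the metal. Medium without serum was used for calcium and GSK4716, and medium holding 1% stripped serum for cadmium, and GSK4716 and DES were dissolved in ethanol. The control is a single untreated group, so that the treatment, its medium and its solvent cannot be told apart. Whether replicates were separate cultures is not given in the sources used here, and p-values therefore measure only the spread between these libraries.

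The unfolded protein response is the program by which cells match the folding capacity of the endoplasmic reticulum to its load of new proteins. Its sensors IRE1 (the product of ERN1), PERK and ATF6 span the membrane of the organelle. IRE1 splices the XBP1 messenger RNA, which then encodes an active transcription factor. Cleaved ATF6 and spliced XBP1 raise chaperones and degradation factors, whereas PERK slows translation and raises ATF4. Depletion of calcium from the endoplasmic reticulum and heavy metals such as cadmium are known ways to disturb folding there. The values used here are levels per gene, so that the spliced and unspliced forms of XBP1 are counted together.

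Among the chaperones, HSPA5 (ENSG00000044574, chr9:125234853-125241330) encodes BiP, the HSP70 of the endoplasmic reticulum. HSP90B1 (ENSG00000166598, chr12:103930107-103953645) encodes GRP94, its HSP90. DNAJB9 (ENSG00000128590, chr7:108569568-108574850) and DNAJC3 (ENSG00000102580, chr13:95677139-95794989) encode J-domain partners of BiP, and DNAJB9 also holds IRE1 inactive. SDF2L1 (ENSG00000128228, chr22:21642261-21644298) encodes a partner of the J-domain protein DNAJB11. PDIA4 (ENSG00000155660, chr7:149003062-149028641) encodes a disulfide isomerase. CRELD2 (ENSG00000184164, chr22:49918167-49927540) encodes a protein of the endoplasmic reticulum that is induced by folding stress. HERPUD1 (ENSG00000051108, chr16:56932048-56944863) encodes a scaffold of the degradation machinery in the membrane. ERN1 (ENSG00000178607, chr17:64039142-64130819) encodes the sensor IRE1, and XBP1 (ENSG00000100219, chr22:28794555-28800597) its splicing target. All coordinates are those of GRCh38 in the deposited table, and all 10 genes are protein coding. HSP90B1, DNAJB9, DNAJC3, HERPUD1 and CRELD2 overlap other annotated genes, such as PNPLA8 at DNAJB9 and ALG12 at CRELD2. The sources differ on whether strand was preserved, and reads of these 5 genes may therefore include some of their neighbours.

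The promoters of 6 of the 10 genes hold an exact copy of a known stress element within the 250 bases before and 50 bases after the RefSeq start on GRCh38.p14. The ER stress response element (ERSE) was searched as CCAAT and CCACG with 9 free bases between them, and ERSE-II as ATTGG and CCACG with 1 free base between them, each on both strands. These elements are known to bind NF-Y at CCAAT and ATF6 or XBP1 at CCACG. The matches are shown with 5 bases (ERSE) or 9 bases (ERSE-II) on each side because 6 of the 10 members hold 1 of these elements, and capitals mark the element.
HSPA5: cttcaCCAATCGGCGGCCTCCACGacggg
HSP90B1, distal copy: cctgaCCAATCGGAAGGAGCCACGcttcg
HSP90B1, proximal copy: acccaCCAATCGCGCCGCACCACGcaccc
XBP1: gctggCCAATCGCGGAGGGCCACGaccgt
CRELD2: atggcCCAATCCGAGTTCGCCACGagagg
HERPUD1: cggacgccgATTGGGCCACGttgggagag
SDF2L1: agggttttgATTGGTCCACGcttccgagg

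The HSPA5 stretch is chr9:125241386-125241414 on the minus strand, and its element runs from base -66 to base -48 relative to the start. The HSP90B1 stretches are chr12:103930211-103930239 on the plus strand and chr12:103930316-103930344 on the minus strand, with elements from -194 to -176 and from -89 to -71. The XBP1 stretch is chr22:28800598-28800626 on the minus strand, and its element runs from -52 to -34. The CRELD2 stretch is chr22:49918549-49918577 on the minus strand, with the element from -80 to -62. The HERPUD1 stretch is chr16:56932016-56932044 on the plus strand (-117 to -107), and that of SDF2L1 is chr22:21642105-21642133 on the minus strand (-188 to -178). The copies in HSP90B1 and CRELD2 lie after the first annotated base of the gene in the deposited table, and the others lie before it.

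Both elements are rare: ERSE was found in 27 of 35116 promoter windows (0.0769%) and ERSE-II in 19 (0.0541%). ERSE was found in 4 members and ERSE-II in 2, and neither was found in the windows of DNAJB9, DNAJC3, PDIA4 and ERN1. The short parts of the elements are common, with CCACG in 38.1% of all windows and in 9 members, and CCAAT in 34.6% of all windows and in all 10. CCACG is part of both elements, and CCAAT is part of ERSE and, on the other strand, of ERSE-II. The XBP1-binding core TGACGTGG (0.729% of windows) and the estrogen-related receptor element TNAAGGTCA (0.951% of windows) were in no window of a member. The shorter TGACGT, which TGACGTGG contains, was in HSPA5 and in 7.98% of windows. A match is a description of these letters, and a missing match says nothing about binding elsewhere.

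Libraries held 14435925 to 28424805 fragments on genes (median 18314738). The members were well covered, from 125 fragments for DNAJB9 in its lowest library to 84075 for HSPA5 in its highest. The luminal epithelial markers ERBB2, FOXA1, GATA3, SPDEF, KRT8, KRT18, KRT19 and EPCAM were expressed in every library, with EPCAM reaching the lowest level among them (50.9 to 190 FPKM, fragments per kilobase of gene, scaled to library size). The markers PTPRC, PECAM1, PDGFRB, KRT5 and KRT14 of other cells were at 0.699 FPKM or less, whereas COL1A1 was at 9.34 to 32.7 FPKM. Libraries differed in how many genes had a fragment, from 16605 in DES with cadmium replicate 1 to 35112 in DES replicate 3.

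In untreated cells the members spanned a wide range of levels per length. XBP1 was the highest at 818 ± 120 FPKM (SD, n = 3), followed by HSPA5 at 125 ± 6.82, HSP90B1 at 93.8 ± 23.9, SDF2L1 at 78.7 ± 6.06 and PDIA4 at 66.3 ± 5.74. HERPUD1 was at 19.8 ± 8.45 FPKM and CRELD2 at 17.1 ± 1.31. DNAJC3 (6.97 ± 0.733), ERN1 (4.97 ± 1.26) and DNAJB9 (4.05 ± 0.483) were the lowest. Over all 21 libraries DNAJB9 spanned 10.9-fold (2.52 to 27.5 FPKM) and HSPA5 spanned 10.8-fold (91.7 to 994 FPKM). XBP1 spanned 3.14-fold (430 to 1349 FPKM) and CRELD2 spanned 3.08-fold, the narrowest range of the 10.

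**Figure D1:**
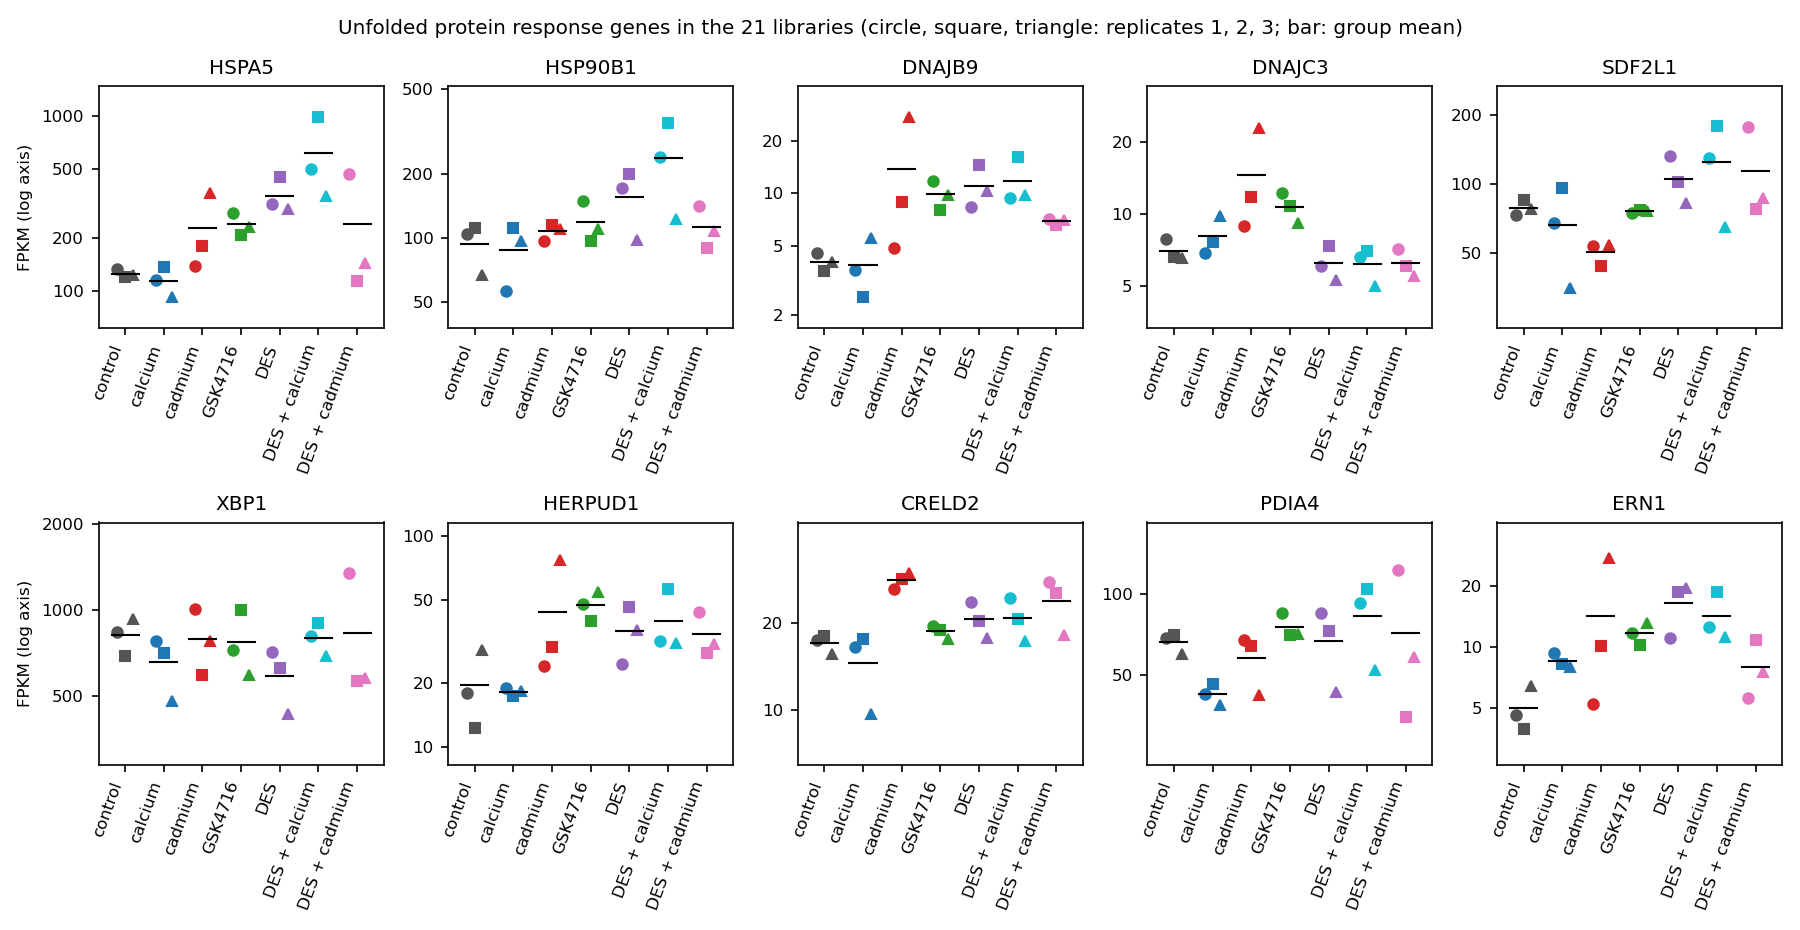
Level of each of the 10 genes in every library (FPKM on a log axis, 1 panel per gene), with the 7 groups along the horizontal axis. Symbols mark the replicate number and bars the group mean. HSPA5 lay between 120 and 133 FPKM in the control and between 294 and 446 FPKM with DES, and cadmium replicate 3 stood above the other cadmium libraries for HSPA5, DNAJB9, DNAJC3, HERPUD1 and ERN1.

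Treatment with DES resulted in higher levels of the chaperone HSPA5, its partner DNAJB9 and the sensor ERN1. HSPA5 was at 133, 120 and 123 FPKM in the control and at 313, 446 and 294 FPKM with DES, a 2.75-fold rise (log2 fold change 1.46, SE 0.21, limma adjusted p = 0.00443). DNAJB9 rose 2.63-fold from 4.54, 3.57 and 4.03 FPKM to 8.35, 14.5 and 10.3 FPKM (log2 fold change 1.40, SE 0.23, limma adjusted p = 0.00657). ERN1 rose 3.23-fold from 4.61, 3.93 and 6.37 FPKM to 11.1, 18.7 and 19.6 FPKM (log2 fold change 1.69, SE 0.28, limma adjusted p = 0.00651). All 3 DES libraries lay above all 3 control libraries for each of these genes. With 3 libraries against 3, an exact permutation test of a single gene cannot go below p = 0.1, so that the calls rest on the spread that limma shares across genes.

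The other 7 members did not pass the test with DES. HERPUD1 was at 24.6, 46.0 and 36.0 FPKM against 17.97, 12.3 and 28.9 in the control (log2 fold change 0.89, limma adjusted p = 0.0984), and the groups overlapped through control replicate 3. HSP90B1 was at 172, 199 and 97.3 FPKM against 104, 111 and 66.4 (0.71, limma adjusted p = 0.140), with DES replicate 3 inside the control range. XBP1 was at 709, 623 and 430 FPKM against 839, 689 and 926 (-0.50, limma adjusted p = 0.220, with a range of 0.00326 to 0.582 over the alternatives). It was called lower under quantile normalization (-1.22) and with library weights (-0.44). The sensor ERN1 and its target XBP1 thus gave log2 fold changes of opposite sign with DES, of which that of ERN1 passed the test. SDF2L1 (0.40), CRELD2 (0.26), PDIA4 (-0.04) and DNAJC3 (-0.17) also overlapped the control. For DNAJC3 the 95% interval of the log2 fold change was -0.60 to 0.26, which leaves out a rise of the size seen for HSPA5.

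Of the 10 members, 3 were called with DES, all 3 higher, against 29.6% of all 14686 genes called in either direction and 16.7% called higher. Similarly, 3 members did not overlap between the groups, against 48.8% of all genes, and 4 had an unadjusted p under 0.05, against 43.2%. The share of members called was therefore close to the background of a treatment that moved many genes. The 3 calls were made in every alternative tried, except that ERN1 had an adjusted p of 0.0565 without a filter on low values. Under quantile normalization the log2 fold change of HSPA5 was 0.88.

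**Figure D2:**
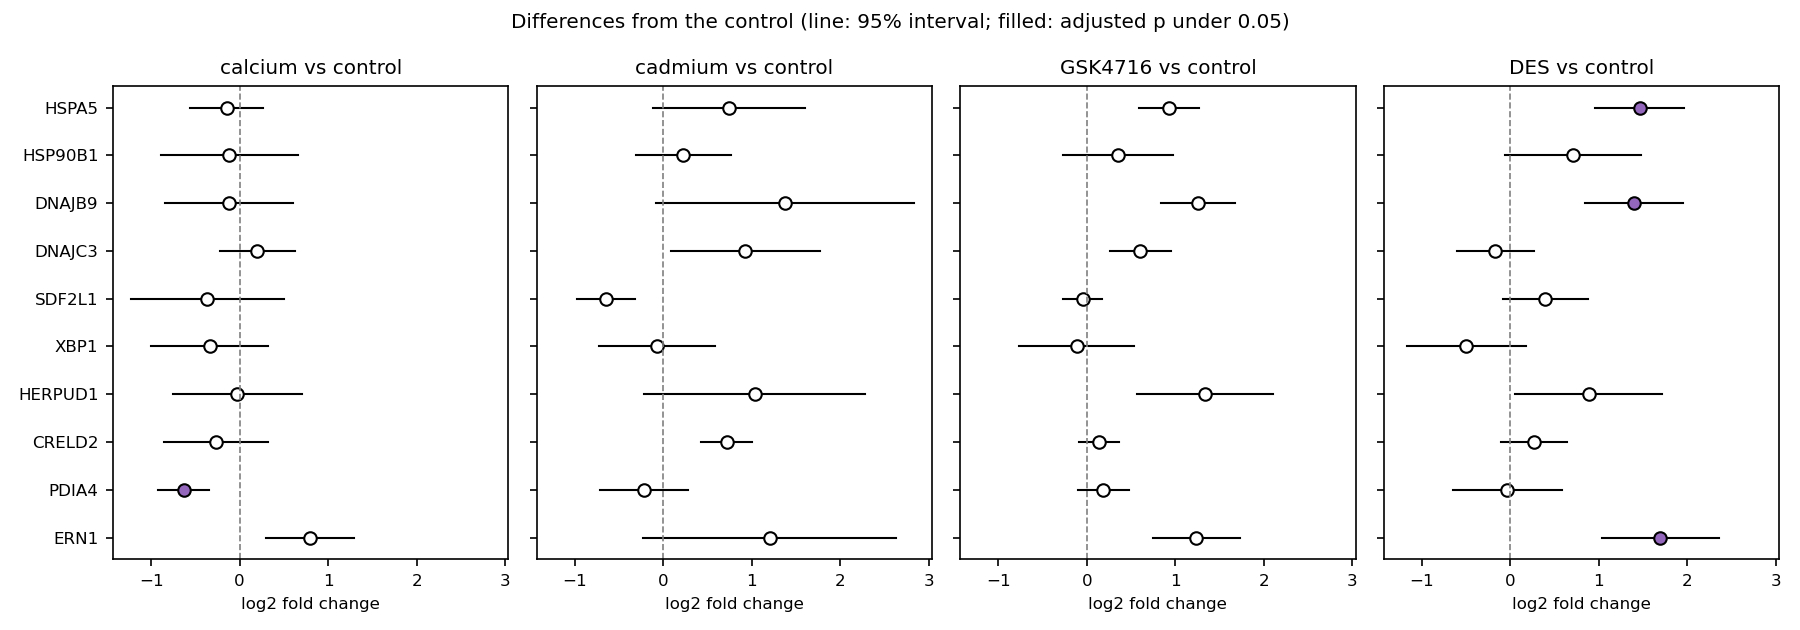
Log2 fold change of each gene with calcium, cadmium, GSK4716 and DES against the control (points), with the 95% interval from limma (lines), and filled points for an adjusted p under 0.05. Filled points are PDIA4 with calcium (-0.63) and HSPA5 (1.46), DNAJB9 (1.40) and ERN1 (1.69) with DES, and the intervals of HSPA5, DNAJB9, DNAJC3, HERPUD1 and ERN1 are widest with cadmium.

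With the agonist GSK4716, the same 3 genes and HERPUD1 and DNAJC3 lay above the control in every library, but none of them passed the adjusted test. HSPA5 was at 279, 208 and 233 FPKM against 133, 120 and 123 in the control (log2 fold change 0.93, SE 0.14, limma adjusted p = 0.139). DNAJB9 was at 11.7, 8.04 and 9.76 FPKM against 4.54, 3.57 and 4.03 (1.25, SE 0.17, limma adjusted p = 0.139). ERN1 was at 11.7, 10.2 and 13.1 FPKM against 4.61, 3.93 and 6.37 (1.24, SE 0.20, limma adjusted p = 0.139). In all 3 genes the lowest GSK4716 library exceeded the highest control library. HERPUD1, the degradation scaffold, was at 47.9, 39.7 and 54.5 FPKM against 17.97, 12.3 and 28.9 (1.33, SE 0.32, limma adjusted p = 0.175). DNAJC3 was at 12.2, 10.8 and 9.10 FPKM against 7.81, 6.56 and 6.53 (0.61, SE 0.14, limma adjusted p = 0.172). PDIA4, at 85.1, 70.6 and 70.9 FPKM against 68.6, 70.5 and 59.8, was also above the control in each library, by a small margin (0.19, limma adjusted p = 0.478). SDF2L1 was nearly level, at 75.0, 76.7 and 76.2 FPKM, with a 95% interval of -0.27 to 0.17 for its log2 fold change.

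No gene of the 14686 was called with GSK4716 by limma (0.0%), and hence none of the 10, whereas limma-voom called 79 genes. By unadjusted p under 0.05 there were 5 members (HSPA5, DNAJB9, ERN1, HERPUD1 and DNAJC3), against 16.4% of all genes, and 6 members did not overlap with the control, against 22.1% of all genes. On fragments recovered from the FPKM values, limma-voom called HSPA5, DNAJB9 and ERN1, each with an adjusted p of 0.0439. Over the alternatives tried, the adjusted p ranged from 0.0311 to 0.986 for HSPA5, and from 0.0311 to 0.887 for DNAJB9 and ERN1. The GSK4716 and DES comparisons share the 3 control libraries, and the difference between both compounds was not tested.

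With cadmium, 4 members lay above the control in every library and SDF2L1 below it, and none passed the adjusted test. DNAJB9 was at 4.85, 8.87 and 27.5 FPKM against 4.54, 3.57 and 4.03 (log2 fold change 1.37, SE 0.60, limma adjusted p = 0.211). HSPA5 was at 140, 181 and 364 FPKM against 133, 120 and 123 (0.74, SE 0.35, limma adjusted p = 0.235). DNAJC3 was at 8.83, 11.7 and 22.8 FPKM against 7.81, 6.56 and 6.53 (0.93, SE 0.35, limma adjusted p = 0.166). Replicate 3 was the highest cadmium library for all 3 genes. It was the highest too for HERPUD1 (24.1, 29.6 and 77.7 FPKM) and ERN1 (5.24, 10.0 and 27.5 FPKM), whose lowest cadmium library lay within the control range. Without cadmium replicate 3 the log2 fold changes were 0.69 for DNAJB9, 0.35 for HSPA5, 0.54 for DNAJC3, 0.52 for HERPUD1 and 0.57 for ERN1. That library had a fragment on 31147 genes, against 23403 and 28137 in replicates 1 and 2, and the part of this in the result was not tested.

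CRELD2 and SDF2L1 varied little between the cadmium libraries and lay on opposite sides of the control. CRELD2 was at 26.2, 28.5 and 29.8 FPKM against 17.5, 18.1 and 15.6 (log2 fold change 0.72, SE 0.12, limma adjusted p = 0.0621). SDF2L1 was at 53.4, 43.8 and 53.9 FPKM against 73.1, 85.1 and 77.8 (-0.65, SE 0.14, limma adjusted p = 0.0744). Neither group overlapped the control. Both were called without cadmium replicate 1 (adjusted p = 0.0335 for CRELD2 and 0.0498 for SDF2L1), and CRELD2 was called by limma-voom (adjusted p = 0.0457). Over all alternatives the adjusted p ranged from 5.9e-04 to 0.235 for CRELD2 and from 9.3e-04 to 0.315 for SDF2L1. XBP1 (-0.07), PDIA4 (-0.22) and HSP90B1 (0.23) overlapped the control.

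Limma called 0 of the 10 members with cadmium, against 0.15% of all genes. There were 3 members with an unadjusted p under 0.05 (CRELD2, SDF2L1 and DNAJC3), against 25.9% of all genes, and 5 that did not overlap with the control, against 34.4%. By limma-voom 1 member was called (CRELD2), against 482 of the 14686 genes.

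With calcium, the disulfide isomerase PDIA4 fell and no other member passed the test. PDIA4 was at 42.8, 46.4 and 38.9 FPKM against 68.6, 70.5 and 59.8 in the control (log2 fold change -0.63, SE 0.12, limma adjusted p = 0.0359), with all calcium libraries below all control libraries. The call depended on single libraries, since PDIA4 was not past the threshold when any calcium library, or control replicate 1 or 2, was left out. Its adjusted p over the alternatives ranged from 0.0109 to 0.399, with 8 of 16 past the threshold. ERN1 was at 9.35, 8.21 and 7.98 FPKM against 4.61, 3.93 and 6.37 (0.79, SE 0.20, limma adjusted p = 0.0749, with a range of 0.0230 to 0.362 over the alternatives), above the control in every library. HSPA5 was at 115, 136 and 91.7 FPKM (-0.15, limma adjusted p = 0.665), and the 95% interval of -0.56 to 0.26 leaves out a rise of the size seen with DES. HERPUD1 was the steadiest, at 18.997, 17.4 and 18.5 FPKM. In all, 1 of 10 members was called, against 7.12% of all genes in either direction and 2.53% lower. By unadjusted p under 0.05 there were 2 members against 23.5% of all genes, and 2 did not overlap with the control, against 29.6%.

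In cells that had received DES first, the addition of calcium gave the highest mean HSPA5 level of the 7 groups without passing the test. HSPA5 was at 499, 994 and 348 FPKM with DES and calcium against 313, 446 and 294 FPKM with DES (log2 fold change 0.69, SE 0.42, limma adjusted p = 0.506). HSP90B1 was at 241, 346 and 122 FPKM against 172, 199 and 97.3 (0.54, limma adjusted p = 0.616). Each of the 10 genes overlapped between the groups, and replicate 2 was the highest library with DES and calcium for HSPA5, HSP90B1, SDF2L1, XBP1, DNAJB9, DNAJC3, HERPUD1, PDIA4 and ERN1. Without that library the log2 fold change was 0.27 for HSPA5 and 0.20 for HSP90B1, and without DES replicate 3 it was 0.23 for HSP90B1. Same-numbered libraries deviated weakly together in these groups (correlations 0.132, 0.103 and 0.280). HSPA5, HSP90B1, XBP1 and PDIA4 were higher with DES and calcium in all 3 such pairs. XBP1 was at 807, 898 and 691 FPKM against 709, 623 and 430, and PDIA4 at 92.1, 104 and 52.5 against 85.2, 72.6 and 43.4. The share of all genes that were higher in all 3 pairs was not counted. In the fit with a replicate block the adjusted p was 0.300 for HSPA5, 0.268 for HSP90B1 and 0.379 for XBP1, and 0 members were called. Without the block, by limma 0 of 10 members were called (0.136% of all genes) and 0 had an unadjusted p under 0.05 (13.2% of all genes). Limma-voom called 0 of all genes tested. No member had all libraries on 1 side of the other group, against 19.9% of all genes.

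Against calcium alone, DES with calcium raised 6 of the 10 members. HSPA5 rose 4.93-fold from 115, 136 and 91.7 FPKM to 499, 994 and 348 FPKM (log2 fold change 2.30, SE 0.39, limma adjusted p = 0.00682). DNAJB9 rose 3.03-fold from 3.62, 2.52 and 5.51 FPKM to 9.40, 16.1 and 9.72 FPKM (1.60, SE 0.34, limma adjusted p = 0.0142). HSP90B1 rose 2.57-fold from 56.3, 111 and 96.3 FPKM to 241, 346 and 122 FPKM (1.36, SE 0.43, limma adjusted p = 0.0481). These 3 chaperone genes lay higher in every library with DES and calcium than in any with calcium alone. HERPUD1 rose 2.09-fold to 31.9, 56.4 and 31.0 FPKM (1.06, SE 0.24, limma adjusted p = 0.0180). PDIA4 rose 1.87-fold to 92.1, 104 and 52.5 FPKM (0.90, SE 0.27, limma adjusted p = 0.0390). ERN1 rose 1.62-fold to 12.6, 18.8 and 11.2 FPKM (0.70, SE 0.22, limma adjusted p = 0.0468). SDF2L1 (0.91), CRELD2 (0.54), XBP1 (0.31) and DNAJC3 (-0.38) overlapped and were not called.

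The 6 members called were set against 35.1% of all genes called in this comparison, and 18.5% called higher. The same 6 did not overlap, against 50.8% of all genes, and had an unadjusted p under 0.05, against 46.8%. HSPA5 and DNAJB9 remained called whichever library was left out. HERPUD1, HSP90B1, PDIA4 and ERN1 were lost without calcium replicate 1, 2 or 3, which left 2 calls, and HSP90B1, PDIA4 and ERN1 were lost without replicate 1 or 2 of DES with calcium, which left 3. Without a filter on low values no member was called (adjusted p = 0.0647 for HSPA5, whose range over the alternatives was 4.7e-04 to 0.0647). HSP90B1, PDIA4 and ERN1 were not called with scaling by total fragments (adjusted p = 0.0653, 0.0575 and 0.0818) or with quantile normalization (adjusted p = 0.150, 0.0867 and 0.0538), and PDIA4 and ERN1 were not called with all 7 groups in the fit (adjusted p = 0.0562 and 0.201). Under quantile normalization the log2 fold change was 1.63 for HSPA5, 0.76 for HSP90B1 and -0.32 for XBP1, which was not called. In the fit with a replicate block ERN1 was not called (limma adjusted p = 0.0563), whereas SDF2L1 was (limma adjusted p = 0.00801).

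**Figure D3:**
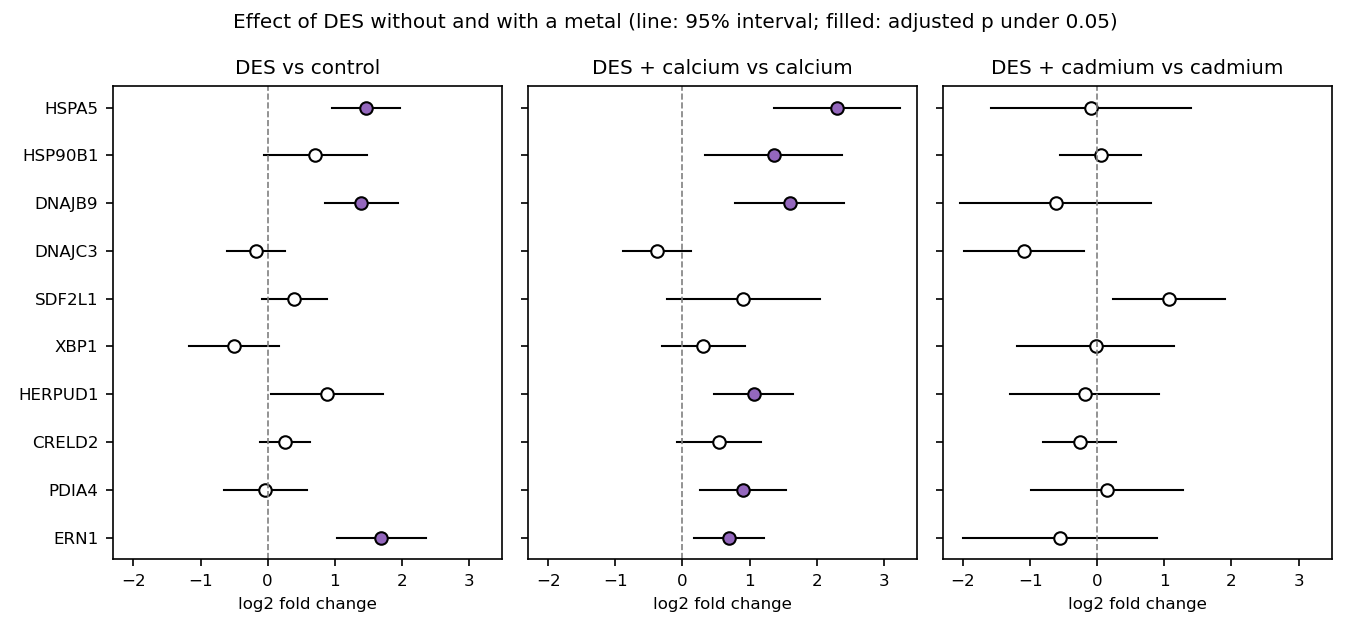
Log2 fold change of each gene by DES in cells without a metal, with calcium and with cadmium (points), with the 95% interval from limma (lines), and filled points for an adjusted p under 0.05. Filled points are 3 genes without a metal, 6 with calcium and 0 with cadmium, and HSPA5 was at 1.46, 2.30 and -0.09.

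With cadmium added to DES, ERN1 and DNAJB9 lay below the DES libraries and the other members overlapped with them. ERN1 was at 5.61, 10.8 and 7.49 FPKM against 11.1, 18.7 and 19.6 with DES (log2 fold change -1.04, SE 0.34, limma adjusted p = 0.358). DNAJB9 was at 7.06, 6.58 and 6.99 FPKM against 8.35, 14.5 and 10.3 (-0.64, SE 0.26, limma adjusted p = 0.466). HSPA5 was at 466, 114 and 144 FPKM against 313, 446 and 294 (-0.81, SE 0.56, limma adjusted p = 0.689). For HSPA5 replicate 1 lay above all DES libraries and the other replicates below them, and the log2 fold change was -1.43 without replicate 1 and -1.47 with library weights (adjusted p = 0.0170). Replicate 1 also held the highest values of this group for XBP1 (1349, 563 and 578 FPKM), SDF2L1 (176, 77.4 and 86.5 FPKM) and PDIA4 (122, 35.15 and 58.3 FPKM). It is the library with the fewest genes with a fragment (16605), and its FPKM values imply a total of 0.693 times its fragments on genes, the lowest of the 21 libraries. The part of this in the result was not tested. Limma-voom called 0 of all genes tested. By limma 0 members were called (0.266% of all genes), and 2 had an unadjusted p under 0.05 (10.4% of all genes). The same 2 did not overlap, against 16.2% of all genes.

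Against cadmium alone, DES with cadmium gave no called member. DNAJC3 was at 7.14, 6.04 and 5.50 FPKM against 8.83, 11.7 and 22.8 with cadmium (log2 fold change -1.09, SE 0.37, limma adjusted p = 0.102). SDF2L1 was at 176, 77.4 and 86.5 FPKM against 53.4, 43.8 and 53.9 (1.07, SE 0.35, limma adjusted p = 0.0924). Without cadmium replicate 3 the log2 fold change of DNAJC3 was -0.71, and without replicate 1 of DES with cadmium that of SDF2L1 was 0.71. Under quantile normalization the log2 fold change of SDF2L1 was 0.44 (adjusted p = 0.232), and those of HSPA5 (-0.91), XBP1 (-0.81), HSP90B1 (-0.70) and PDIA4 (-0.49) were lower than with the deposited scaling (-0.09, -0.02, 0.05 and 0.15), none of them called. Both groups stood apart for DNAJC3 and SDF2L1 and overlapped for the others. DNAJC3 was thus at 5.27 to 7.32 FPKM in all DES libraries without a metal, 4.98 to 6.98 with DES and calcium, and 5.50 to 7.14 with DES and cadmium. By limma 0 of 10 members were called, against 9.89% of all genes, and limma-voom called 0, against 1808 of the 14686 genes. An unadjusted p under 0.05 was found for the 2 members named, against 32.6% of all genes, and 40.0% of all genes did not overlap.

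The interaction term asked whether a metal acted differently with DES than without, and no member passed it for either metal. For cadmium, ERN1 had the largest term (-2.25, SE 0.71, limma adjusted p = 0.130), followed by DNAJB9 (-2.01, SE 0.68, limma adjusted p = 0.149) and HSPA5 (-1.55, SE 0.69, limma adjusted p = 0.260). In each of these genes the mean was higher with cadmium than in the control, and lower with DES and cadmium than with DES. Without cadmium replicate 1 the terms for DNAJB9 (-2.57, adjusted p = 0.0421) and ERN1 (-2.79, adjusted p = 0.0444) passed the threshold, and without cadmium replicate 3 they were -1.33 and -1.61. Over the 22 alternatives the adjusted p ranged from 0.00103 to 0.330 for DNAJB9 and from 3.7e-04 to 0.296 for ERN1. Calls were 0 by limma and by limma-voom, against 1.18% of all genes, with 3 members under 0.05 unadjusted against 18.5% of all genes. For calcium, ERN1 (-0.99, SE 0.37, limma adjusted p = 0.167), PDIA4 (0.94, SE 0.39, limma adjusted p = 0.213) and XBP1 (0.81, SE 0.37, limma adjusted p = 0.249) had an unadjusted p under 0.05. That is 3 members against 19.9% of all genes, and 0 were called by limma or by limma-voom, against 3.63%.

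The order of the group means differed between members. HSPA5 ran from DES with calcium (614 ± 338 FPKM, SD, n = 3) through DES (351 ± 83.0), DES with cadmium (241 ± 195), GSK4716 (240 ± 35.6) and cadmium (228 ± 120) to the control (125 ± 6.82) and calcium (114 ± 22.2). Neighbours in that order overlapped in their libraries, with the exception of cadmium and the control. ERN1 was highest with DES (16.5 ± 4.69 FPKM) and lowest in the control (4.97 ± 1.26), with calcium (8.51 ± 0.734) and DES with cadmium (7.97 ± 2.64) between them. DNAJC3 was highest with cadmium (14.4 ± 7.37 FPKM) and GSK4716 (10.7 ± 1.56), and its 3 groups with DES were the lowest, at 6.17 to 6.22 FPKM on average. CRELD2 was also highest with cadmium (28.2 ± 1.81 FPKM).

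Across the 21 libraries the members fell along more than 1 pattern. DNAJB9 and HERPUD1 had the highest Pearson correlation of log2(FPKM + 0.1) of the 45 pairs (0.873), followed by HSPA5 with HSP90B1 (0.829) and DNAJB9 with ERN1 (0.822). The lowest was DNAJC3 with SDF2L1 (-0.445), and the median pair was at 0.379. SDF2L1 and PDIA4 (0.674), which encode folding factors, varied together, whereas PDIA4 and ERN1 did not (-0.140). These values describe libraries that share groups and scaling, and they carry no test.

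**Figure D4:**
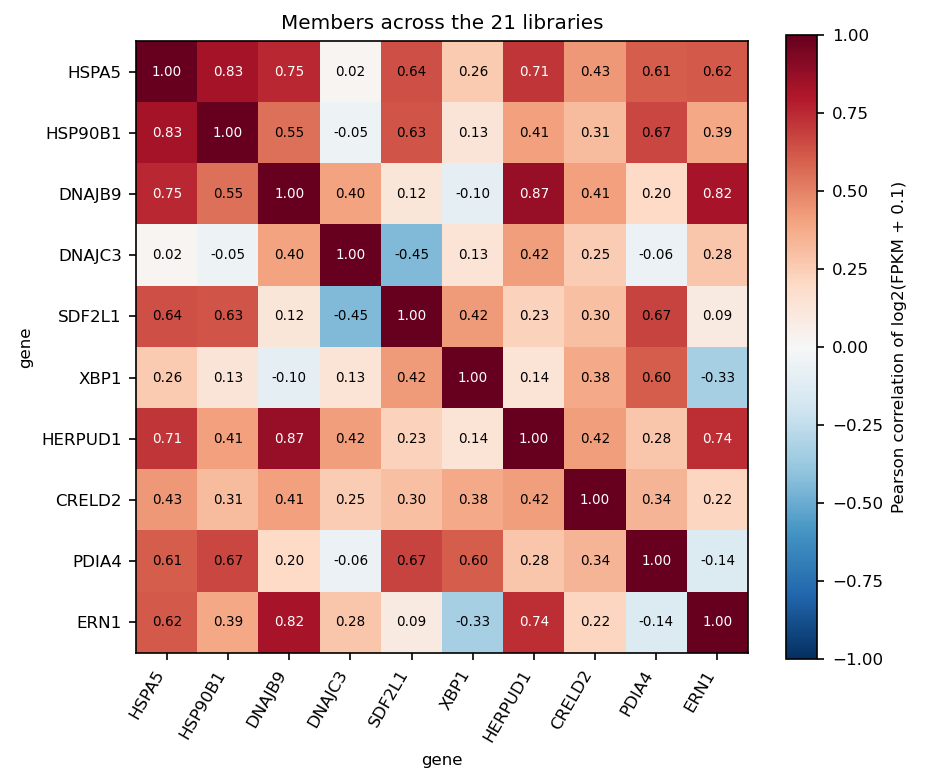
Pearson correlation of log2(FPKM + 0.1) between each pair of the 10 genes over the 21 libraries (colour scale from -1 to 1, value in each cell). DNAJB9 is near HERPUD1 (0.873) and ERN1 (0.822), HSPA5 is near HSP90B1 (0.829), and DNAJC3 is near 0 with HSPA5 (0.02).

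The 5 genes outside the 10 with the pattern most like HSPA5, of 12235 genes compared over 21 libraries, were SELENOK, SPCS2, ARF1, SRP72 and MCPH1. SELENOK, a membrane selenoprotein of endoplasmic reticulum degradation, had a Pearson correlation of 0.883 (Spearman 0.810). SPCS2, a subunit of the signal peptidase, had 0.881 (Spearman 0.819). ARF1, a small GTPase of vesicle budding, had 0.857 (Spearman 0.781). SRP72, a subunit of the signal recognition particle, had 0.852 (Spearman 0.805). MCPH1 had 0.842, the lowest Pearson value of the 5, and a Spearman value of 0.865, the highest of them. SELENOK ranged from 14.1 ± 0.720 FPKM in the control to 49.3 ± 14.4 FPKM with DES and calcium (SD, n = 3), and was at 33.8 ± 6.47 FPKM with DES. Both SELENOK and HSPA5 were highest, on average, with DES and calcium, which follows in part from choosing SELENOK by its likeness to HSPA5.

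The wider machinery was read from 6 further gene lists. With DES, the genes listed as downstream of PERK and ATF4 had 10 of 18 called higher and 0 lower (median log2 fold change 0.91, against 0.05 for all genes), where 16.7% of all genes were called higher and 29.6% in either direction. The activity of PERK and ATF4 was not measured. PPP1R15A, the phosphatase subunit that restores translation, rose from 6.36 ± 2.57 to 155 ± 28.8 FPKM (log2 fold change 4.64, limma adjusted p = 2.9e-04). Cytosolic heat shock genes had 20 of 23 called higher (median 1.60), among them the small chaperone CRYAB, from 0.0204 FPKM or less in each control library to 6.30 ± 0.957 FPKM with DES. The 25 folding factors of the endoplasmic reticulum had 1 called higher and 3 lower (median 0.31), a share below that of all genes. FKBP11, a prolyl isomerase, rose (0.83, limma adjusted p = 0.0295), and UGGT1, which senses misfolded glycoproteins, fell (-0.78, limma adjusted p = 0.0439).

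Degradation genes went both ways with DES, with 3 of 21 called higher and 6 lower (median -0.10), against 29.6% of all genes in either direction. SELENOK rose (1.24, limma adjusted p = 0.00397), and EDEM3, a mannosidase that marks glycoproteins for degradation, fell from 8.07 ± 0.445 to 2.14 ± 0.982 FPKM (-1.98, limma adjusted p = 0.00890). Genes of entry into and export from the endoplasmic reticulum had 9 of 34 called higher and 1 lower (median 0.35), a share near that of all genes. SRP14 of the signal recognition particle rose (0.93, limma adjusted p = 0.0251), and the signal peptidase subunit SPCS3 fell (-0.64, limma adjusted p = 0.0435). Sensors and regulators had 0 of 16 called higher and 2 lower (median -0.08), of which MBTPS2, a protease that activates ATF6, fell the most (-1.05, limma adjusted p = 0.0225). By limma-voom, 1 gene of this list was called higher and 2 lower, against 4770 of the 14686 genes called in either direction.

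With GSK4716 no gene of any list was called by limma. Limma-voom called 2 genes downstream of PERK and ATF4 and 1 of entry and export, all higher, against 79 of the 14686 genes. An unadjusted p under 0.05 was reached by 16.4% of all genes in either direction. At that level 13 of 25 folding factors, 19 of 34 entry and export genes, 8 of 21 degradation genes and 11 of 18 genes downstream of PERK and ATF4 were higher, and no gene of these lists was lower. Sensors and regulators went both ways, with 4 higher and 2 lower of 16, and cytosolic heat shock genes had 0 higher and 5 lower of 23. The median log2 fold change was 0.35 for folding factors, 0.39 for entry and export, 0.32 for degradation and 0.92 downstream of PERK and ATF4, against 0 for all genes. Positive values were found for 23 of 25 folding factors and 30 of 34 entry and export genes. The median of the 10 members was 0.48 with GSK4716, 0.55 with DES, 0.73 with cadmium and -0.13 with calcium. With a library left out it ranged from 0.34 to 0.57 with GSK4716, from 0.41 to 0.71 with DES, from 0.43 (without cadmium replicate 3) to 0.90 with cadmium, and from -0.30 to -0.02 with calcium, so that GSK4716, DES and cadmium have no fixed order.

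With calcium, calls in the lists lay mainly outside the endoplasmic reticulum, with 7.12% of all genes called. Of the genes downstream of PERK and ATF4, 4 of 18 were called higher and 1 lower, with ATF3, a stress transcription factor, up from 1.91 ± 0.693 to 115 ± 104 FPKM (5.52, limma adjusted p = 0.0123) and DDIT4, an inhibitor of growth signaling, down from 107 ± 7.99 to 54.5 ± 5.34 FPKM (-0.97, limma adjusted p = 0.0150). Heat shock genes had 5 of 23 called higher, led by the small chaperone HSPB1 (2.99, limma adjusted p = 0.0140). Of 25 folding factors, 1 was called, the disulfide oxidase ERO1A, up from 8.83 ± 0.581 to 28.4 ± 8.78 FPKM (1.63, limma adjusted p = 0.0195). Degradation, entry and export, and sensor genes had 0 calls by limma, with 6 of 21, 3 of 34 and 3 of 16 genes under an unadjusted p of 0.05 (23.5% of all genes). By limma-voom 2, 0 and 0 of them were called, against 1582 of the 14686 genes.

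With cadmium, FKBP2, a prolyl isomerase of the endoplasmic reticulum, rose from 31.2 ± 3.05 to 75.3 ± 6.46 FPKM (1.27, limma adjusted p = 0.0443), the 1 folding factor of 25 that was called. ATF5, a stress transcription factor, fell from 18.2 ± 0.310 to 4.72 ± 1.09 FPKM (-1.95, limma adjusted p = 0.0443), the 1 call of 18 downstream of PERK and ATF4. The other lists had 0 calls by limma (0.15% of all genes were called). In them limma-voom called 1 sensor or regulator, lower, against 482 of the 14686 genes. At an unadjusted p under 0.05, 3 degradation genes were higher and 1 lower, 5 entry and export genes higher and 2 lower, 1 sensor or regulator higher and 4 lower, and 5 heat shock genes higher and 0 lower. These counts were near the 25.9% of all genes that reached that level. The medians were 0.73 downstream of PERK and ATF4 and 0.84 for heat shock genes, against 0.04 for all genes.

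**Figure D5:**
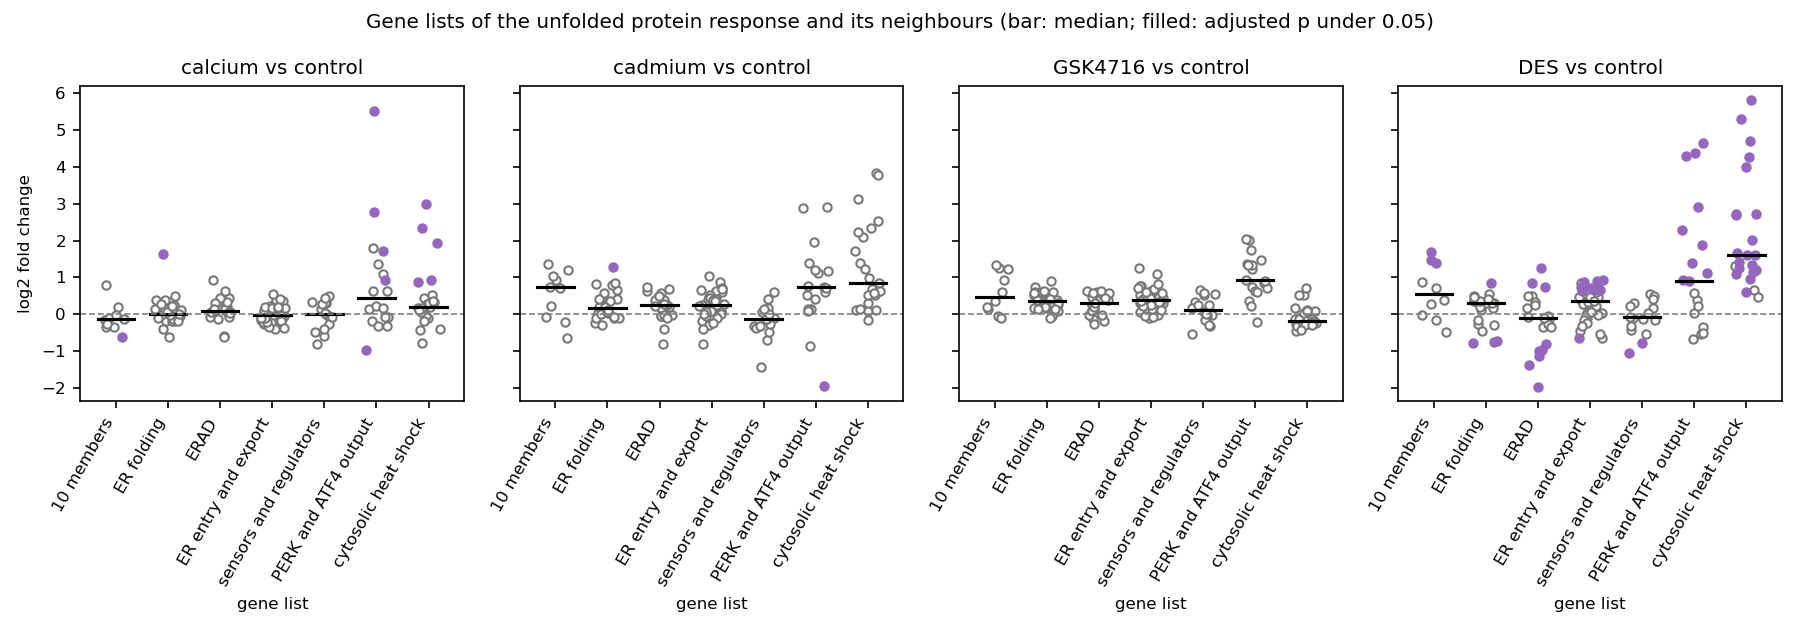
Log2 fold change of every gene tested in the 10 members and 6 lists (points, 1 panel per treatment against the control), with the list median (bar) and filled points for an adjusted p under 0.05. With DES the heat shock list has a median of 1.60 and the PERK and ATF4 list of 0.91, whereas the folding factors lie at 0.31 and the degradation genes at -0.10.

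Against calcium alone, DES with calcium gave 23 of 34 entry and export genes called higher and 1 lower (median log2 fold change 0.72, against -0.01 for all genes), where 18.5% of all genes were called higher and 35.1% in either direction. Folding factors had 6 of 25 called higher and 3 lower (median 0.44), degradation genes 4 of 21 higher and 7 lower (median -0.40), and sensors and regulators 3 of 16 higher and 2 lower. The shares called of folding factors and of sensors were near that of all genes. Genes downstream of PERK and ATF4 had 7 of 18 called higher (median 0.02), and heat shock genes 19 of 23 (median 1.67).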

How the data were processed

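The 10 members and the gene lists were chosen with earlier results of these data known. Per the labels' processing notes, the authors used HISAT2 2.0.5, featureCounts 1.5.0-p3 and GRCh38.p14, and they deposited a table of FPKM (1 column per library) that also gives the length and position of each gene. FPKM times gene length, multiplied by the library size that the FPKM values imply, gave whole fragments, within 0.01, for 100% of values. At most 1.07% of genes over 10 fragments had equal fragments in 2 libraries, and no library was counted as a copy.

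Tests used limma 3.58.1 in R 4.3.3, with lmFit and a trended eBayes, and took log2(FPKM + 0.1) of 14686 genes (mean FPKM at or over 0.5), with only the compared groups in the fit, and were checked on simulated data. Fold changes are on this scale and understate those of low genes. Two-sided p-values were adjusted by Benjamini-Hochberg over these genes (threshold 0.05). Interactions were (metal with DES minus DES) minus (metal minus control). DESeq2 and edgeR, named by the study, were not run because counts are not the deposited unit. Named genes were the members, the called gene of each list with the largest rise and fall against the control at a mean FPKM of at least 1, and the 5 genes most correlated with HSPA5. Promoter windows are RefSeq's (GRCh38.p14), 12 for the 10 members, all matched by symbol. Python 3.11.15 was used with pandas 2.3.3, numpy 2.4.6 and, for the figures, matplotlib 3.10.9.

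Labels share replicate numbers between groups but do not say that a number marks a shared batch. Deviations within a group sum to 0, so that the 3 correlations of a comparison are not independent of each other. Same-numbered libraries deviated together in all 3 pairs of DES with calcium and DES (correlations 0.132, 0.103 and 0.280) and of DES with cadmium and DES (0.472, 0.121 and 0.313), and in these comparisons the paired fit with a replicate block called 0 members, as without it. In the other 6 comparisons at least 1 pair was at or under 0.1. A further gene of the luminal marker list is not reported here.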

Additional observations from a re-analysis of the deposited data

Results flagged for a closer look

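DNAJB9, which encodes a J-domain partner of BiP, was singled out because its libraries moved in opposite directions with cadmium in the absence and presence of DES. All 3 cadmium libraries (4.85, 8.87 and 27.5 FPKM) lay above all 3 control libraries (4.54, 3.57 and 4.03 FPKM), and all 3 libraries of DES with cadmium (7.06, 6.58 and 6.99 FPKM) lay below all 3 DES libraries (8.35, 14.5 and 10.3 FPKM). The difference between both effects was -2.01 on the log2 scale (limma adjusted p = 0.149), which does not pass the threshold.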

How the results depend on the processing

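Of the 416 comparisons of a log2 fold change of a member with its value under an alternative, 347 kept their direction and side of the threshold, 27 passed it newly, 42 lost it, and 0 changed sign. The tally covers only members that were called or did not overlap between the groups, so that leaving out a library could not change a sign. Outside it, quantile normalization changed the sign of XBP1 for DES with calcium against calcium. It also changed that of HSP90B1 and PDIA4 for DES with cadmium against cadmium. The number of members called with calcium (1 as reported) was 0 with a size limit of 1 on the log2 fold change, 0 without a filter on low values, 0 with all 7 groups in the fit, 0 with a replicate block, 2 with quantile normalization, 2 with library weights (arrayWeights), 2 by limma-voom, and 0 to 2 with a library left out. With cadmium (0 as reported) it was 2 with all 7 groups, 8 with library weights, 1 by limma-voom and 0 to 2 with a library left out. With GSK4716 (0) it was 4 with library weights and 3 by limma-voom, and with DES (3) it was 8 with library weights, 2 without the filter, 4 with quantile normalization and 3 to 4 with a library left out (4 without control replicate 3 or DES replicate 3). For DES with cadmium against DES (0) it was 3 with library weights. For DES with calcium against calcium (6) it was 0 without the filter, 4 with a size limit of 1 on the log2 fold change, 4 with all 7 groups, 3 with scaling by total fragments, 3 with quantile normalization and 2 to 6 with a library left out. For DES with cadmium against cadmium (0) it was 1 with total fragments, 2 with all 7 groups and 3 with library weights. For the interaction with calcium (0) it was 1 with quantile normalization and 1 with library weights, and for that with cadmium (0) it was 1 with all 7 groups, 8 with library weights and 0 to 2 with a library left out. Leaving out a library or the filter changes the number of samples or genes tested by construction, and the cause of the other changes was not tested. The share of all genes called under each alternative is not given beside these counts, which therefore do not tell whether the members exceeded it. By limma-voom, 1582 of the 14686 genes were called with calcium, 482 with cadmium, 79 with GSK4716 and 4770 with DES.

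With the replicate block, 3 members were called with DES, the same as without it, and 6 for DES with calcium against calcium, with SDF2L1 (adjusted p = 0.00801) in place of ERN1 (0.0563). The block changed the number of calls in no other comparison than calcium against control. With scaling by total fragments the median of all genes was -0.13 with calcium, -0.12 with DES, -0.13 and -0.24 for DES with calcium and with cadmium against DES, -0.20 for DES with calcium against calcium, -0.39 for DES with cadmium against cadmium and -0.23 for the interaction with cadmium, where it was -0.01, 0.05, 0.00116, -0.04, -0.01, -0.08 and -0.09 with the deposited scaling. With quantile normalization it was -0.09 with DES, 0.10 for DES with cadmium against DES, and 0.11 and 0.12 for the interactions with calcium and cadmium. With total fragments DES still raised HSPA5 by 1.29, DNAJB9 by 1.23 and ERN1 by 1.52. Each member had 125 or more fragments in every library.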

Other observations

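Outside the 10 members, 38 genes hold an exact ERSE or ERSE-II in a RefSeq promoter window, of which 22 were expressed and tested. With DES, 2 of them were called higher (SERP1, 0.73, and CAMTA1, 0.92) and 1 lower (ALG12, -0.68), with a median log2 fold change of 0.30 against 0.05 for all genes. The share called is below the 29.6% of all genes. For DES with calcium against calcium, 7 were called higher and 2 lower, with a median of 0.62 against -0.01 for all genes. Of all genes 18.5% were called higher and 35.1% in either direction. The 7 were EIF2A, SERP1, CANX, SHCBP1, NUCB1, CALR and CAMTA1, of which CALR and CANX encode lectin chaperones, and GYS1 and TRIM5 were lower. With calcium 0 were called higher and 1 lower (SHCBP1, -1.50), against 7.12% of all genes. By limma 0 were called with cadmium or GSK4716, with 8 and 6 genes under an unadjusted p of 0.05 (25.9% and 16.4% of all genes). By limma-voom 1 and 0 were called, against 482 and 79 of the 14686 genes. The genes of the list were found by sequence alone, and those named here were chosen after their values were seen.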
